A study of Mus musculus with 5 samples.

Results

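The 10 genes described here are the Notch receptors Notch1, Notch2 and Notch3, the ligands Dll1, Dll3 and Jag1, and the target genes Hes1, Hes5, Hey1 and Heyl. They are 10 of the 24411 genes of a table of molecule counts from single cells of mouse embryo blood. Members were chosen by name, with earlier results of these data known. They were measured in the 294 wells, of 480 in the table, that held at least 1000 genes and 30000 UMIs (unique molecular identifiers, each of which marks a single mRNA molecule). The series description states 300 cells. Levels are given as CPM, the UMIs of a gene per 1000000 UMIs of its cell, with spike-in rows left out.

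The cells came from wild-type C57BL/6 embryos, 2 batches at embryonic day 9.5 (E9.5 replicates 1 and 2) and 3 batches at embryonic day 10 (E10 replicates 1 to 3). All 5 batches held blood taken from the heart, sorted for cells without the surface proteins TER119, CD41, CD43 and CD45, which mark red cells, platelet precursors and other blood cells, and each cell was then picked by hand. The study's title names circulating cells outside the blood lineage as its subject. The labels do not say whether batches came from separate litters, so p-values measure the spread between these batches, which may be technical.

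Notch receptors are proteins of the cell surface that are cut when a Delta or Jagged ligand on a neighbouring cell pulls on them. The freed intracellular part joins the DNA-binding protein RBPJ and switches on target genes, among them the Hes and Hey repressors. In the embryonic nervous system, newly formed neurons carry Delta ligands and Hes genes hold their neighbours back as progenitors, and in early blood vessels and blood the same pathway takes part in cell fate choices. The promoters of a target, Hes5, and of a ligand, Dll1, are printed because Hes5 had no UMI in any cell and Dll1 was higher in neural cells.

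The sequences are the 250 bases before the RefSeq start site on the GRCm38.p6 assembly, read along the gene's strand. Capitals mark the RBPJ motif GTGGGAA on either strand in Hes5 and the E-box CAGCTG, a motif bound by basic helix-loop-helix factors, in Dll1. The Hes5 window lies at chr4:154960673-154960922 on the plus strand and the Dll1 window, before the second of its listed starts, at chr17:15376933-15377182 on the minus strand.
Hes5 promoter: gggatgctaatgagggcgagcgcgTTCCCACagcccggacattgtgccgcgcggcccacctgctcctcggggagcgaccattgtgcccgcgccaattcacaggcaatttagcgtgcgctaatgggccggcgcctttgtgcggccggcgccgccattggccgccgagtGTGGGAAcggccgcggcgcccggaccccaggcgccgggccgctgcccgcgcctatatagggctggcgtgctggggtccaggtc
Dll1 promoter: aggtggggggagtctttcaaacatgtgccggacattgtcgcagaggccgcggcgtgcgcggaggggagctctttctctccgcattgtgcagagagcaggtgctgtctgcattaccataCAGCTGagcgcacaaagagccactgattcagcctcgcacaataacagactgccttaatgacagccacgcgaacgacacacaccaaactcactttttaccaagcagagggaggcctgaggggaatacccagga
The Hes5 window held 2 matches, which began 226 and 83 bases before the start, and the Dll1 window held 1 E-box, 132 bases before the start. The window before the other listed start of Dll1, at chr17:15375824-15376073, held 0 E-boxes. The windows of Dll3 and Jag1 held 1 E-box each, and those of Notch1, Notch2, Notch3 and Hes5 held 0. Whether these motifs bear on the levels of the genes was not tested. Among 32851 promoter windows of that length, 5.42% held GTGGGAA and 13.0% held CAGCTG on either strand. The CAGCTG letters read the same on both strands, and the motifs do not overlap. The Hes5 window shares 153 bases with exons of the noncoding gene Gm20421, and the Dll1 window lies wholly in an exon of the noncoding gene A930024N18Rik. Hes1, Hey1 and Heyl had no entry in the promoter table.

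Cells were placed in 3 gates by genes outside the pathway. The neural gate took cells with Tubb3, a neuronal tubulin, at 150 CPM or more, or Sox10, a neural crest and glial factor, at 50 CPM or more. The blood gate took cells with Alas2, an enzyme of haem synthesis in red cells, at 400 CPM or more, and the Prrx1 gate took cells with Prrx1, a mesenchymal transcription factor, at 100 CPM or more. They held 46 neural cells (3, 7, 13, 4 and 19 from E9.5 replicates 1 and 2 and E10 replicates 1 to 3), 46 blood cells (1, 10, 1, 23 and 11) and 125 Prrx1 cells (15, 21, 51, 16 and 22). A further 74 cells passed no gate, and 3 cells that passed several were left out of the comparisons. The cells nearest the Tubb3 limit stood at 154 and 145 CPM, those nearest the Sox10 limit at 56.3 and 42.9 CPM, those nearest the Alas2 limit at 616 and 343 CPM, and those nearest the Prrx1 limit at 105 and 97.8 CPM.

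A median of at least 20 CPM was reached by 8 of 10 neuronal markers and 4 of 8 neural crest and glial markers in the neural gate, 9 of 9 erythroid markers in the blood gate and 8 of 10 mesenchymal markers in the Prrx1 gate. Each of these counts includes the gene that set the gate (Tubb3, Sox10, Alas2 or Prrx1), so that gene is no check of it. Outside their own gates, the neuronal list and the neural crest and glial list had 0 markers at that level. All 10 endothelial markers had a median of 0 in every gate. The globin genes Hba-x, Hbb-y and Hbb-bh1 also reached 20 CPM at the median in the neural and Prrx1 gates, and the summed erythroid markers ranged by batch from 535 to 55180 CPM in neural cells and from 367 to 59830 CPM in Prrx1 cells. Their part in the results below was not tested. The 3 neural cells of E9.5 replicate 1 passed through Sox10 alone and had the lowest summed neuronal markers of any batch, 634.5 CPM against up to 8382 CPM. Kept cells ranged from 31294 to 1407021 UMIs, with medians of 279611 in the neural, 371308.5 in the blood and 277773 in the Prrx1 gate, and batches held 7545865 to 44415774 UMIs. No kept cell had the same counts as another.

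Notch1, the receptor gene at chr2:26457903-26516663 on the minus strand (GRCm38, as for all positions), had its highest batch means in the neural gate. Its level differed between the subsets of that gate, as given below. Its mean per neural cell was 102, 62.8, 52.9, 109 and 149 CPM in E9.5 replicates 1 and 2 and E10 replicates 1, 2 and 3. In Prrx1 cells of the same batches it was 5.13, 29.1, 10.3, 14.8 and 8.08 CPM. The neural batches all lay above the Prrx1 batches, with no overlap. The means of batches were 95.3 ± 38.8 and 13.5 ± 9.40 CPM (SD, n = 5 batches), and neural cells were higher in 5 of 5 batches by a log2 fold change of 2.93 (SE 0.43; adjusted p = 6.4e-05 by the quasi-likelihood test of edgeR, adjusted after Benjamini and Hochberg). This test summed UMIs per batch and gate, so deeper cells weigh more in it than in the means per cell, and batch was a block in the fit.

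The other receptors ran the opposite way without passing the test. Notch2, at chr3:98013527-98150361 on the plus strand, had neural means of 66.1, 5.28, 45.5, 3.31 and 19.2 CPM and Prrx1 means of 26.4, 39.6, 107, 56.6 and 64.4 CPM, in the same order of batches. It was lower in neural cells in 4 of 5 batches and the groups overlapped, with E9.5 replicate 1 the exception (log2 fold change -1.49, SE 0.62, adjusted p = 0.198 in edgeR). Without E9.5 replicate 1, Notch2 passed (log2 fold change -2.17, adjusted p = 0.0135 in edgeR). Notch3, at chr17:32120820-32166852 on the minus strand, had neural means of 21.9, 1.68, 19.5, 18.0 and 5.62 CPM and Prrx1 means of 42.6, 11.6, 59.6, 26.9 and 52.4 CPM. It was lower in neural cells in 5 of 5 batches, yet the groups overlapped and the difference did not pass the test (log2 fold change -1.75, SE 0.68, adjusted p = 0.163 in edgeR). Among cells thinned to 30000 UMIs, Notch1 was detected in 24 of 46 neural and 19 of 125 Prrx1 cells, Notch2 in 12 and 72, and Notch3 in 7 and 67.

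Of the ligands, Dll3 had the largest log2 fold change of the 9 members tested between neural and Prrx1 cells. Dll3, a divergent Delta ligand known to work inside the cell that makes it, lies at chr7:28293553-28302238 on the minus strand. Its neural means were 170, 389, 210, 99.1 and 282 CPM against Prrx1 means of 1.43, 8.65, 1.49, 2.25 and 4.20 CPM. Every neural batch lay far above every Prrx1 batch, by a log2 fold change of 6.31 (SE 0.41, adjusted p = 8.7e-11 in edgeR, higher in 5 of 5 batches). Within the neural gate the level was uneven, with a median cell at 66.2 CPM and the highest at 1289 CPM.

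Dll1, a Delta ligand that activates receptors on neighbouring cells, lies at chr17:15367354-15376872 on the minus strand. Its neural means were 0, 66.7, 36.3, 21.7 and 30.8 CPM, and its Prrx1 means 0.314, 0.785, 1.12, 0.482 and 3.76 CPM. The 3 neural cells of E9.5 replicate 1 held no Dll1 UMI, and the other 4 neural batches lay above every Prrx1 batch. Dll1 was higher in neural cells in 4 of 5 batches (log2 fold change 4.49, SE 0.97, adjusted p = 0.0045 in edgeR). Without E9.5 replicate 2, which held the highest mean, the adjusted p was 0.104. Jag1, a Jagged ligand at chr2:137081456-137116644 on the minus strand, did not differ past the threshold. It had neural means of 5.30, 15.8, 12.5, 4.23 and 9.69 CPM and Prrx1 means of 0, 7.29, 25.9, 2.34 and 17.5 CPM, which overlapped (log2 fold change 0.41, SE 1.01, adjusted p = 0.902 in edgeR).

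Among the targets, Hes1 and Heyl moved in opposite directions. Hes1, a repressor of proneural genes at chr16:30064384-30067796 on the plus strand, had neural means of 297, 21.6, 66.9, 112 and 40.6 CPM and Prrx1 means of 346, 484, 158, 565 and 305 CPM. It was lower in the neural cells of every batch, though the neural mean of E9.5 replicate 1 lay above the Prrx1 mean of E10 replicate 1. The log2 fold change was -2.56 (SE 0.41, adjusted p = 1.7e-04 in edgeR). Detection at 30000 UMIs was 26 of 46 neural cells (56.5%, exact 95% interval 41.1% to 71.1%) and 108 of 125 Prrx1 cells (86.4%, 79.1% to 91.9%). These intervals cover counting error only.

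Heyl, a Hey-family repressor at chr4:123233556-123249875 on the plus strand, had neural means of 111, 42.6, 52.1, 16.3 and 38.2 CPM and Prrx1 means of 0.348, 0.486, 9.92, 0 and 3.56 CPM. The groups did not overlap, and Heyl was higher in neural cells in 5 of 5 batches (log2 fold change 4.83, SE 0.81, adjusted p = 3.2e-04 in edgeR). Hey1, its relative at chr3:8663359-8667256 on the minus strand, was low in both gates and did not pass the test. Its neural means were 7.04, 14.2, 0, 12.2 and 15.2 CPM and its Prrx1 means 0.363, 2.12, 5.97, 12.7 and 15.0 CPM, which overlapped (log2 fold change 0.72, SE 1.26, adjusted p = 0.852 in edgeR). Hes5, at chr4:154960923-154962371 on the plus strand and a well known Notch target of neural progenitors, was listed at 0 UMIs in all 480 columns. Across the 294 kept cells that allows at most 3 counts in 104791537 UMIs, or 0.0286 CPM, and a share of cells with a UMI of up to 1.02%.

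**Figure D1:**
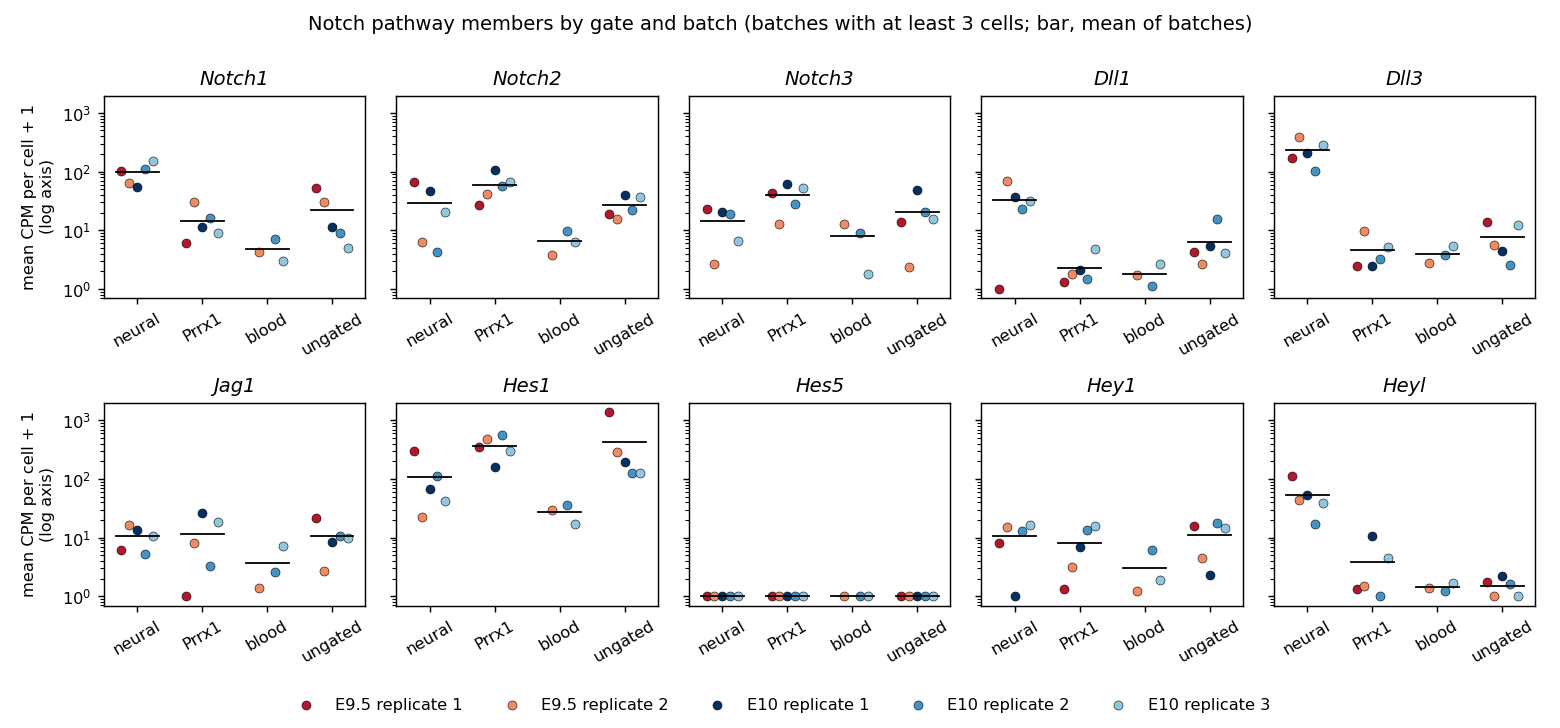
Mean CPM per cell with 1 added (log axis) of each of the 10 genes, by gate and batch, for batches with at least 3 cells of the gate; horizontal bars are means of batches. Notch1, Dll3 and Heyl separate the neural gate from the others, Hes1 is at 26.9 CPM in the blood gate against 372 CPM in the Prrx1 gate, and Hes5 is at 0 throughout.

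Counted together, 5 of the 9 members tested passed at an adjusted p under 0.05 between neural and Prrx1 cells, 4 higher and 1 lower, beside 5.67% of 13041 genes tested. By direction, 3.01% of genes were higher and 2.65% lower. The median log2 fold change was 0.72 over the 9 members and -0.08 over all genes tested. Hes5 did not pass the filter on low counts and is not in these numbers. Overlapping noncoding genes could share reads with some members if strand was not used in counting, which the sources used here do not give. The noncoding genes named next have no row of their own among the counts, so their levels could not be checked. Notch1 shares 1068 exon bases with 0610009E02Rik and 414 with Gm13568, Notch3 shares 488 with Gm17276, Dll1 shares 867 with A930024N18Rik and Hes5 shares 433 with Gm20421, all on the opposite strand, while Notch2 shares 541 with Gm42820 on its own strand.

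Blood-gate cells had less Hes1 and Notch2 than Prrx1 cells, and no member was higher in them. Batches with at least 3 blood cells were E9.5 replicate 2 and E10 replicates 2 and 3. Hes1 means there were 29.0, 35.4 and 16.4 CPM, all below the lowest Prrx1 batch, and it was lower than in Prrx1 cells by a log2 fold change of -3.05 (SE 0.48, adjusted p = 4.7e-05 in edgeR, lower in 3 of 3 batches). Notch2 means were 2.72, 8.84 and 5.31 CPM, again below every Prrx1 batch (log2 fold change -2.05, SE 0.70, adjusted p = 0.0404 in edgeR, lower in 3 of 3 batches). That call was lost when E9.5 replicate 2, E10 replicate 1 or E10 replicate 3 was left out, with adjusted p-values of 0.211, 0.0657 and 0.252.

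Notch1 in blood cells stood at 3.21, 6.05 and 2.04 CPM and did not pass the threshold (log2 fold change -1.48, SE 0.54, adjusted p = 0.0524 in edgeR, and 0.0424 without E9.5 replicate 1). Dll3 stood at 1.73, 2.81 and 4.42 CPM, within the range of Prrx1 cells. Dll1 was at 0.740, 0.120 and 1.60 CPM and Heyl at 0.399, 0.231 and 0.676 CPM. At 30000 UMIs Dll1 was found in 0 of 46 blood cells, which allows a share of up to 6.52% at that depth and for that depth only, since 10 of them (21.7%) held a Dll1 UMI at full depth. The full-depth share in Prrx1 cells was 27 of 125 (21.6%). Whether these few UMIs come from the cells or from free RNA in the blood was not tested. With 2 of 9 members lower and none higher, beside 10.5% and 9.16% of all genes (19.6% in either direction), the share of members called was close to that of all genes.

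Against blood cells, neural cells were higher in Notch1 (log2 fold change 4.41, SE 0.59), Dll1 (5.09, SE 1.16), Dll3 (5.51, SE 0.51) and Heyl (5.62, SE 1.08). Each of these was higher in 3 of 3 batches, with adjusted p-values in edgeR's quasi-likelihood test between 2.0e-08 and 0.0021. No member was lower, beside 22.7% of all genes called, 11.6% higher and 11.1% lower. Hes1 did not pass in this pair (log2 fold change 0.49, SE 0.49, adjusted p = 0.528 in edgeR). The Dll1 call was lost without E9.5 replicate 2 (adjusted p = 0.0565), and the Heyl call was lost when every cell was thinned to the same depth (log2 fold change 2.86, adjusted p = 0.161 in edgeR). The 3 comparisons share their cells, so they do not stand as separate evidence of the same gene.

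**Figure D2:**
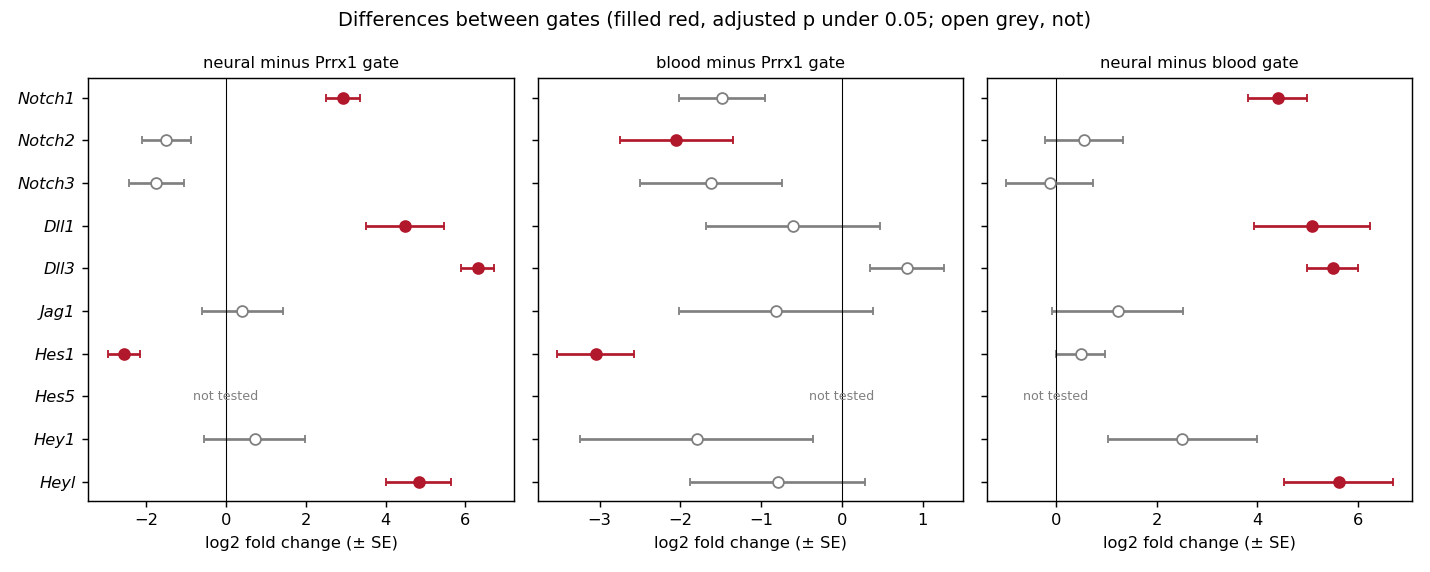
Log2 fold change of each member between pairs of gates (points, with bars of ± 1 SE; each panel has its own axis) from edgeR on UMIs summed per batch and gate; filled red points have an adjusted p under 0.05 and open grey points do not. Notch1, Dll1, Dll3 and Heyl are filled on the right in both panels with neural cells, and Hes1 is filled on the left in both panels against Prrx1 cells.

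The 74 cells outside all gates gave Hes1 means of 1370, 287, 193, 125 and 128 CPM in the 5 batches in order. The first value comes from 7 cells of E9.5 replicate 1 and lies far above the others. Ungated Notch1 means were 51.4, 29.7, 10.5, 7.89 and 3.91 CPM, Dll3 means 12.6, 4.67, 3.41, 1.51 and 11.3 CPM, and Heyl means at most 1.22 CPM. Heyl and Dll3 were thus below their neural means in every batch.

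Inside the neural gate, 16 cells passed through Sox10 only, 18 through Tubb3 only and 12 through both, and the members were spread unevenly over these subsets. Heyl averaged 92.4 CPM in Sox10-only, 26.4 CPM in double and 16.9 CPM in Tubb3-only cells, and was detected at 30000 UMIs in 11 of 16, 4 of 12 and 1 of 18. Most of the Tubb3-only level came from a cell of 295 CPM. Sox10-only cells had the highest Heyl mean in each of the 3 batches that held all 3 subsets, E9.5 replicate 2 and E10 replicates 1 and 3. Hes1 averaged 118, 48.1 and 37.2 CPM over the cells of each subset, but none of those 3 batches showed that order.

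The Delta ligands had another order. Dll3 averaged 80.2 CPM in Sox10-only, 603 CPM in double and 177 CPM in Tubb3-only cells, with detection in 5 of 16, 11 of 12 and 11 of 18. Dll1 averaged 13.5, 79.3 and 24.6 CPM, and Notch1 90.2, 206 and 43.7 CPM in the same order. The median Tubb3-only cell held 4.9 CPM of Notch1. Tubb3-only Notch1 means in E9.5 replicate 2 and E10 replicate 1 were 10.4 and 1.30 CPM. These lay below the Prrx1 means there, 29.1 and 10.3 CPM. In E10 replicates 2 and 3 they were 99.8 and 56.1 CPM, above the Prrx1 means of 14.8 and 8.08 CPM. In the 3 batches with all subsets, double cells had the highest Dll3 mean in every batch, at 547, 691 and 587 CPM. They had the highest Dll1 mean in E10 replicates 1 and 3 and the highest Notch1 mean in E9.5 replicate 2 and E10 replicate 3, where Notch1 reached 335 CPM. These ranks are descriptions, and the differences of double cells from the other subsets were not tested.

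Sox10-only and Tubb3-only cells were tested against each other in the batches with at least 3 cells of each, E10 replicates 1 (6 and 4 cells) and 3 (3 and 10 cells). No member passed in edgeR's quasi-likelihood test, beside 1.56% of 9802 genes, 0.469% higher and 1.09% lower. Of the 9802 genes, 651 had an unadjusted p under 0.05 in that test, and so had 2 of the 9 members. These were Heyl, at 93.8 and 99.0 CPM in Sox10-only against 0.989 and 29.7 CPM in Tubb3-only cells (log2 fold change 4.07, SE 1.47, unadjusted p = 0.0056, adjusted p = 0.221 in edgeR), and Dll3, at 2.55 and 205 CPM against 159 and 121 CPM (log2 fold change -2.54, SE 1.25, unadjusted p = 0.0417, adjusted p = 0.700 in edgeR). DESeq2 called 1 member, Heyl.

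**Figure D3:**
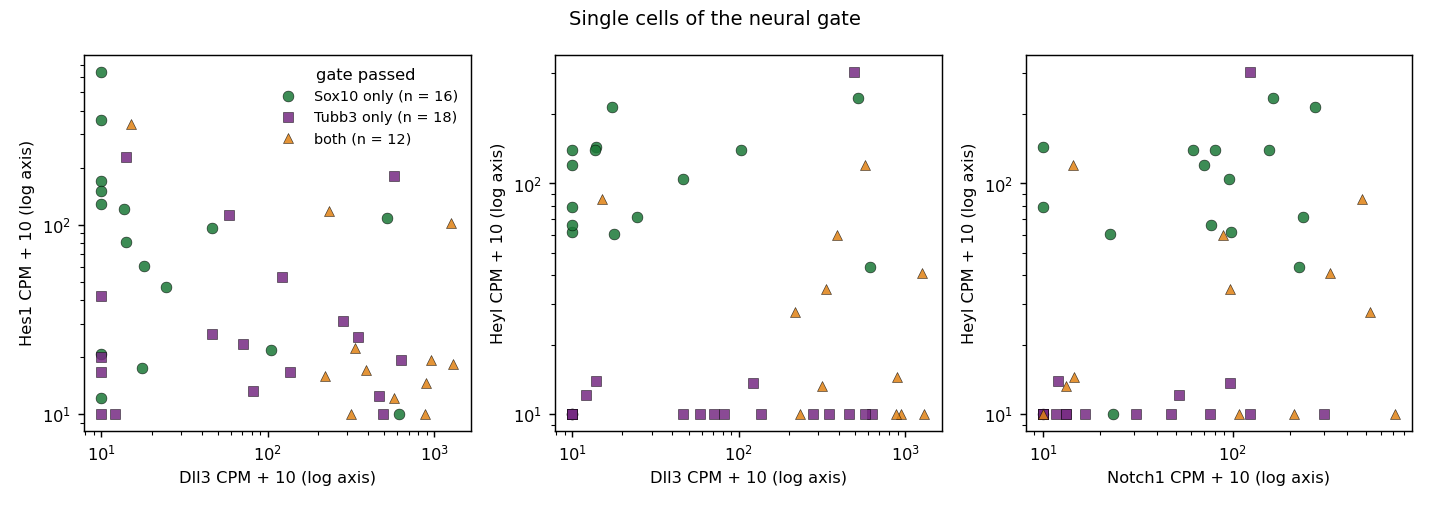
CPM with 10 added (log axes) in each of the 46 cells of the neural gate, for Hes1 against Dll3, Heyl against Dll3 and Heyl against Notch1, coloured by the gene that passed the gate. Sox10-only cells (n = 16) have a median of 81.8 CPM of Heyl beside 3.82 CPM of Dll3 and 68.4 CPM of Notch1, and cells of both gates (n = 12) reach 1289 CPM of Dll3.

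Cell by cell within the neural gate, correlations are a description over 46 cells that share libraries and depth. By the rule of the gate, a cell below the Sox10 limit had to reach the Tubb3 limit, and the reverse. A gene's correlations with Sox10 and Tubb3 are thus not independent, and they add no evidence to the subsets of the same cells. Spearman's rho was 0.56 for Heyl with Sox10 (0.57 to 0.82 within the 3 batches of at least 6 cells). For Heyl with Tubb3 it was -0.61 (-0.63 to -0.56 within batches). Dll1 and Dll3 rose together at 0.52 (0.14 to 0.74). Hes1 ran against Dll3 at -0.33 (-0.71 to -0.08) and against Dll1 at -0.40 (-0.49 to -0.07), but with Jag1 at 0.35 (0.28 to 0.55). Notch1 and Heyl correlated at 0.34 (0.11 to 0.60), whereas Notch1 and Hes1 stood at -0.15 (-0.48 to 0.14).

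Detection in the same thinned cells showed the pairs as counts. Heyl was found in 11 of the 24 neural cells with Notch1 (45.8%) and in 5 of the 22 without (22.7%). Hes1 was found in 12 of 27 cells with Dll3 (44.4%) and in 14 of 19 without (73.7%). Heyl was found in 2 of 15 cells with Dll1 (13.3%) and in 14 of 31 without (45.2%). Notch1 and Dll3 were found together in 16 of 46 neural cells, where Notch1 was found in 24 and Dll3 in 27. Whether they shared cells more often than their separate detection would give was not tested.

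Prrx1 cells paired other genes. Hes1 was found in 62 of the 72 Prrx1 cells with Notch2 (86.1%) and in 46 of the 53 without (86.8%), shares that were nearly equal. The same held for Notch3, with 58 of 67 (86.6%) against 50 of 58 (86.2%). Hey1 was found in 11 of 67 Prrx1 cells with Notch3 (16.4%) and in 1 of 58 without (1.72%), and Heyl in 7 and 1 of the same cells. Depth is matched in these counts, but the 5 batches are pooled in them. Across the 125 Prrx1 cells at full depth, Spearman's rho of Notch3 with Hey1 was 0.15 (-0.25 to 0.40 within batches). With Heyl it was 0.27 (0.097 to 0.395 within batches). The part of batch in the Hey1 and Heyl counts was not tested.

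Receptor and target transcripts together were common outside the blood gate. At 30000 UMIs per cell, 170 of 294 kept cells (57.8%, exact 95% interval 52.0% to 63.5%) held a UMI of any receptor and of any target. The share was 26 of 46 in the neural gate (56.5%, 41.1% to 71.1%), 95 of 125 in the Prrx1 gate (76.0%, 67.5% to 83.2%) and 10 of 46 in the blood gate (21.7%, 10.95% to 36.4%). At full depth the shares were 97.8%, 90.4% and 82.6%, with median depths of 279611, 277773 and 371308.5 UMIs. Blood cells gave the lowest of these shares at both depths, and had the highest median depth. At 30000 UMIs a receptor was detected in 69.6% of neural, 84.8% of Prrx1 and 43.5% of blood cells. A target was detected in 78.3%, 88.8% and 54.35% of them. Whether the joint shares exceed what these separate shares would give was not tested.

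By batch, neural shares were 100%, 71.4%, 46.2%, 75.0% and 47.4%, and Prrx1 shares 86.7%, 52.4%, 84.3%, 81.3% and 68.2%, in the order of E9.5 replicates 1 and 2 and E10 replicates 1 to 3. Neural cells were lower in 3 of 5 batches and higher in 2. The mean difference of -6.57 ± 23.7 percentage points (SD, n = 5 batches) was within the spread of batches (exact sign-flip permutation test, two-sided p = 0.5625, where 0.0625 is the smallest possible). Its sign changed with the detection rule, to 9.69 points without thinning and 1.20 points when at least 2 UMIs were required, and with a batch left out, to 1.33 points without E10 replicate 1. A ligand was detected in 35 of 46 neural cells (76.1%), 32 of 125 Prrx1 cells (25.6%) and 6 of 46 blood cells (13.0%).

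**Figure D4:**
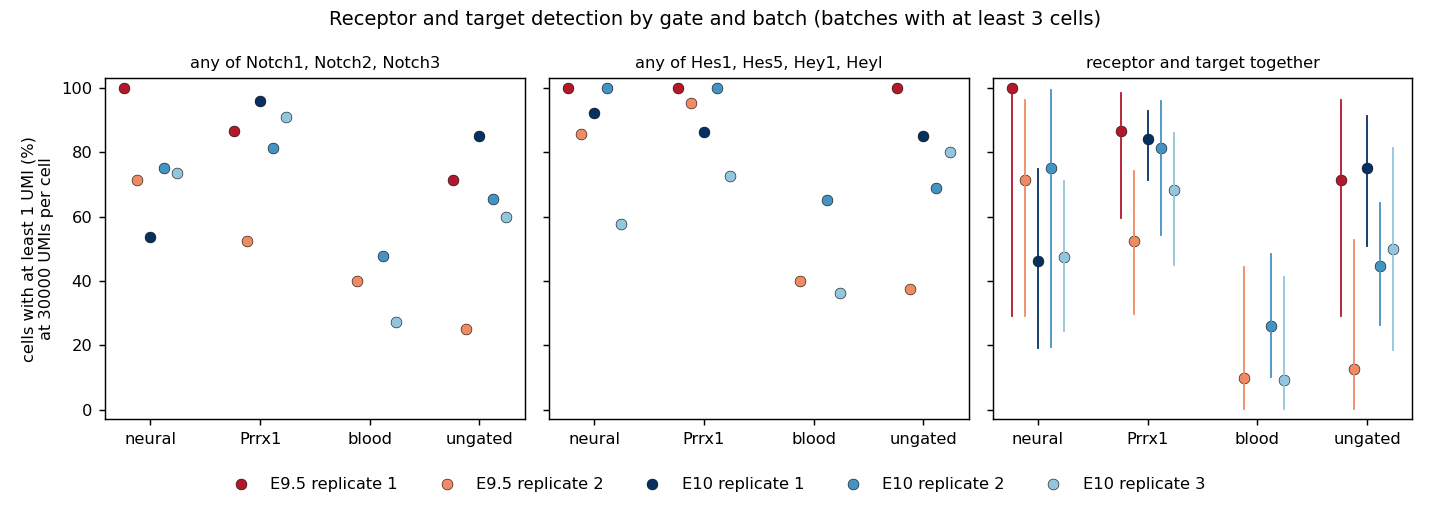
Percent of cells of each gate and batch (at least 3 cells) with a UMI of any receptor, any target, or both at 30000 UMIs per cell; vertical lines in the right panel are exact 95% binomial intervals. The neural shares range from 46.2% to 100% and the Prrx1 shares from 52.4% to 86.7%, and the blood shares from 9.09% to 26.1%.

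Between E9.5 and E10, the only groups the labels give, no member passed. Over all kept cells Hes1 stood at 607 and 281 CPM in the E9.5 batches and at 150, 193 and 142 CPM in the E10 batches, with no overlap. Its log2 fold change, E10 minus E9.5, was -1.62 (SE 0.49, unadjusted p = 0.0125, adjusted p = 0.616 in edgeR). It was the single member, of 9 tested, with an unadjusted p under 0.05, and edgeR called 0% of 14103 genes, while 1119 genes had an unadjusted p under 0.05 and DESeq2 called 86. How many of all genes showed no overlap between stages was not counted, and so few batches can separate by chance. Within Prrx1 cells the Hes1 batches overlapped, at 346 and 484 CPM against 158, 565 and 305 CPM, and the log2 fold change was -0.44 (SE 0.49). The 7 ungated cells of E9.5 replicate 1 stood at 1370 CPM, and their part in the difference over all cells was not tested.

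In Prrx1 cells Notch2 stood at 26.4 and 39.6 CPM at E9.5 and 107, 56.6 and 64.4 CPM at E10 (log2 fold change 1.08, SE 0.48, unadjusted p = 0.0464, adjusted p = 0.489 in edgeR). Hey1 stood at 0.363 and 2.12 CPM at E9.5 and 5.97, 12.7 and 15.0 CPM at E10 (log2 fold change 3.11, SE 1.26, unadjusted p = 0.0316, adjusted p = 0.466 in edgeR). For both genes every E10 batch lay above every E9.5 batch. So few batches can separate by chance, and the share of all genes that separated was not counted. EdgeR called 0 of the 8 members tested and 0% of 11528 genes, while 1173 genes had an unadjusted p under 0.05 and DESeq2 called 119. Dll1 and Hes5 did not pass the filter there.

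In neural cells no member of the 9 tested had an unadjusted p under 0.05. Heyl stood at 111 and 42.6 CPM at E9.5 and at 52.1, 16.3 and 38.2 CPM at E10 (log2 fold change -1.16, SE 0.65, adjusted p = 0.844 in edgeR). The 111 CPM come from 3 cells that were all Sox10-only, the subset with the highest Heyl mean. The part of the subsets in the stage values of neural cells was not tested. The stages overlapped for Notch1, Dll3 and Hes1 too. EdgeR called 0% of 10201 genes, 608 had an unadjusted p under 0.05, and DESeq2 called 43. The difference in stage effect between neural and Prrx1 cells, tested as an interaction in edgeR, passed for 0 of 9 members, with every adjusted p at 1. Heyl alone of the members had an unadjusted p under 0.05 in that edgeR fit (0.0241, with a log2 difference of -3.65), beside 506 of 12860 genes. Receptor and target co-expression was 61.9% ± 32.2 at E9.5 (SD, n = 2 batches) and 57.0% ± 15.4 at E10 (SD, n = 3 batches), with a two-sided exact permutation p of 0.7, where 0.1 is the smallest possible. The difference was -4.89 percentage points, and 17.9 points without E9.5 replicate 1.

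**Figure D5:**
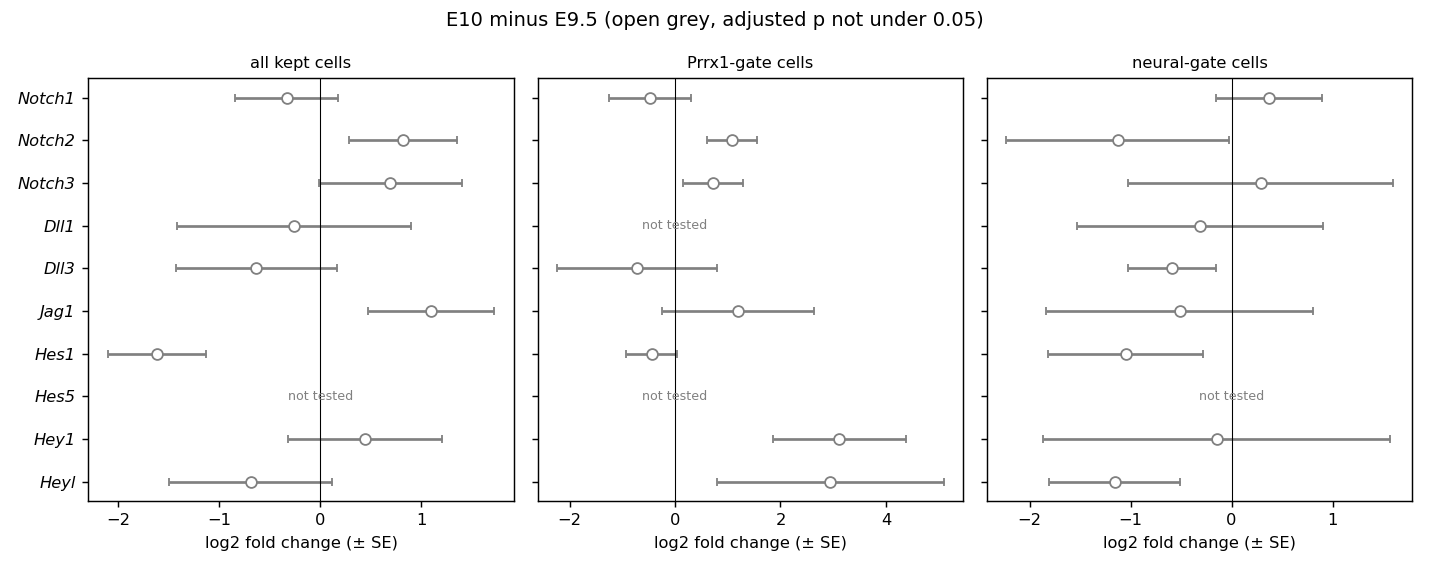
Log2 fold change of each member, E10 minus E9.5 (points, with bars of ± 1 SE; each panel has its own axis), over all kept cells, Prrx1-gate cells and neural-gate cells, from edgeR on UMIs summed per batch. All points are open grey, since no adjusted p is under 0.05; Hes1 over all cells is at -1.62 and Hey1 in Prrx1 cells at 3.11.

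Among 44 other genes of the pathway, 40 were tested between gates, and 3 were higher and 0 lower in neural than in Prrx1 cells, beside 5.67% of all genes called in either direction. These were Mfng, a Fringe enzyme that adds sugars to Notch receptors (91.4 ± 46.0 against 1.24 ± 0.98 CPM, SD, n = 5 batches, log2 fold change 6.40), Dtx4, a ubiquitin ligase of the Deltex family (2.97), and Hes6, a Hes-family gene that counteracts Hes1 (2.45). Their adjusted p-values in edgeR's quasi-likelihood test were 3.1e-08, 0.0097 and 5.3e-05, and all were higher in 5 of 5 batches. The other 37 did not pass, and the median of the 40 was 0.33, beside -0.08 for all genes.

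In blood against Prrx1 cells, 6 of the 40 were lower and 1 was higher, a share close to the 19.6% called among all genes. The lower genes were Aph1b (log2 fold change -3.76), a subunit of the gamma-secretase that frees the receptor's intracellular part, Maml3 (-3.36), a coactivator, Dlk1 (-2.37), a noncanonical ligand, Poglut1 (-1.92), a glucosyltransferase acting on Notch, Crebbp (-1.55), an acetyltransferase, and Rbpj (-1.13). Adam10, the protease that cuts the receptor after ligand binding, was higher at 1.41. Of these 7, only Dlk1 and Adam10 passed whichever batch was left out; the other 5 were lost without E9.5 replicate 2, with adjusted p-values of 0.130 (Maml3) to 0.440 (Rbpj) in edgeR, and 4 of them also without E10 replicate 3, with 0.111 (Maml3) to 0.270 (Aph1b). Aph1b was lost without E9.5 replicate 1 (0.0571) and E10 replicate 1 (0.0811) too, and Rbpj without E10 replicate 1 (0.0638). With thinned cells Maml3 (0.0605), Poglut1 (0.185) and Rbpj (0.0764) were lost, with doubled gates Aph1b (0.0510) and Poglut1 (0.0638), and with at least 5 cells per sum Aph1b (0.0894), all adjusted p-values of edgeR. Between neural and blood cells 9 were higher, among them Mfng (5.19), Dtx4 (4.62), Maml3 (3.49), Hes6 (3.39) and Poglut1 (2.73), with Crebbp, Rbpj and Dlk1 between 1.49 and 1.61, and Adam10 was lower (-1.20), beside 22.7% of all genes called. Without E10 replicate 3, the adjusted p in edgeR rose to 0.0816 for Adam10, 0.0907 for Maml3 and 0.188 for Dlk1, and without E9.5 replicate 2 to 0.0803 for Maml3, 0.0941 for Rbpj and 0.116 for Dlk1. With thinned cells it was 0.0526 for Poglut1. Between Sox10-only and Tubb3-only cells 1 of 33 tested passed, Dlk1, which was lower (-3.11). Beside it, 1.56% of 9802 genes passed, 1.09% of them lower in Sox10-only cells. That comparison rests on E10 replicates 1 and 3, and the Dlk1 call was lost with no replicate block (adjusted p = 0.218 in edgeR).

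Of 13 proneural and Id genes, 9 were tested. In neural against Prrx1 cells the proneural factor Neurod4 (log2 fold change 6.56) and the progenitor factor Sox2 (5.30) were among the genes that were higher, and Id1, an inhibitor of proneural factors, was lower (-1.07), with edgeR adjusted p-values of 0.0214, 4.0e-06 and 0.0136. Id1 was lost without either E9.5 batch (adjusted p = 0.0954 without replicate 1 and 0.0681 without replicate 2) and with at least 5 cells per sum (0.173), and Neurod4 without E9.5 replicate 2 (0.115), E10 replicate 1 (0.216) or E10 replicate 3 (0.0797). In blood against Prrx1 cells Id1 (-3.17), Id2 (-3.56) and Id3 (-2.77) were lower. Neural cells were higher than blood cells in Sox2, Id1, Id2 and Id3, and in Sox10-only against Tubb3-only cells Neurod1 was lower (-5.34) and Id3 higher (2.56).

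For the members with a UMI in at least 20% of kept cells, the 3 genes of the closest pattern were found by Spearman's correlation across cells, averaged over 5 batches, among 9920 genes (9921 for Heyl). The coefficients are descriptions of 294 cells. Dll3 was closest to Elavl3 (0.40), a neuronal RNA-binding protein, Nfasc (0.39), an axonal adhesion molecule, and Miat (0.38), a long noncoding RNA. Heyl was closest to Tspan18 (0.38), Rgs16 (0.36) and Ednrb (0.35), the endothelin receptor of neural crest. Dll1 had Tcn2 (0.31) and Ndufa4l2 (0.30) among its closest.

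Hes1 was closest to Mest (0.48) and Igf2 (0.42), imprinted growth-related genes, and to Dusp6 (0.39), a phosphatase of the ERK pathway. Notch1 was closest to Anxa5 (0.36), Cotl1 (0.35) and S100a16 (0.34), Notch2 to Cdc14b (0.28), Thrap3 (0.27) and Fzd2 (0.26), and Notch3 to Actn1 (0.33), Farp1 (0.33) and Hdgfrp3 (0.32). Jag1 was closest to Trim6 (0.32), Etv5 (0.28) and Cklf (0.25), and Hey1 to Sh2b2 (0.29), Hip1 (0.27) and Trim6 (0.27). By batch, Notch1 with Anxa5 ran from -0.0324 to 0.627. Hey1 ran from -0.00832 to 0.47 with Hip1 and from -0.12 to 0.665 with Trim6. The other pairs named here were above 0 in every batch. None of the members had another member among its 3 closest genes.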

How the data were processed

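The deposited table holds UMI counts per gene, whole numbers for 24411 genes in 480 columns, 96 per batch. The submitters' processing notes name CASAVA 1.8, the aligner TopHat2 2.0.12, the build mm10 and the counter HTSeq. The strand setting is not given in the sources used here. The library protocol was a modified form of STRT-seq, per the labels. The match of columns to samples rests on the batch number alone, and the deposited barcode list was not used. From the counts, 95 spike-in rows were left out, cells were kept at 1000 genes and 30000 UMIs, and no doublet caller was run on the hand-picked cells. Counts were summed per batch and gate (at least 3 cells) and tested with edgeR 4.0.16 in R 4.3.3 (filterByExpr, TMM, quasi-likelihood test, Benjamini-Hochberg adjustment over all genes tested, threshold 0.05), with batch as a block between gates. Each batch holds 1 stage, so stage fits had no block. The standard error was the log2 fold change divided by the square root of F. The edgeR fits were also run on simulated counts, drawn with the same spread for all genes and no differences between batches. The outcome is not reported here.

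Detection was compared after thinning each cell to 30000 UMIs, with exact 95% binomial (Clopper-Pearson) intervals and a limit of 3 counts for shares of 0. Alternatives were DESeq2 1.42.0, no filter, thinned counts, a lower minimum of 5000 UMIs, doubled gates, cells of several gates kept, at least 5 cells per sum, no block, and each batch left out. The members, the gates, the lists of 44 pathway and 13 proneural genes and the tests were chosen with earlier results of these data known. All members are named in every comparison, list genes where they passed (at most 10 pathway genes per comparison), and for each member detected in 20% of cells the 3 genes most correlated with it on the log2(CPM + 10) scale, among genes detected in 25% of cells. Some genes that these rules name are not reported here. Positions are from GENCODE M21 and promoters from RefSeq.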

Additional observations from a re-analysis of the deposited data

Results flagged for a closer look

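In the Prrx1 gate, the mean level of Dll1 in E10 replicate 3 was 3.76 CPM per cell, and the nearest of the other 4 batches, E10 replicate 1, stood at 1.12 CPM. The gap was 0.766 of the range of the 5 batches, beyond the 95% limit for a batch that far from the others. Of 21 such groups of 5 batches, this was the only 1 that passed the limit, and chance alone passes about 1 in 20. The 22 Prrx1 cells of that batch give the mean, and without it Dll1 was still higher in neural than in Prrx1 cells. No member passed the interaction test for a different stage effect in neural and Prrx1 cells (9 members tested, 0 past the threshold). That test called 0 of 12860 genes, so the lack of a call does not show equal stage effects.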

How the results depend on the processing

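Over 14 alternatives each, Notch1 (log2 fold change 2.69 to 3.31), Dll3 (6.01 to 6.52), Heyl (3.54 to 5.67) and Hes1 (-3.01 to -2.05) passed between neural and Prrx1 cells in all 14, as did Hes1 between blood and Prrx1 cells (-3.44 to -2.82) and Notch1 and Dll3 between neural and blood cells. Among the 14, leaving out repeated wells removed no cell, so that setting could not differ from the main fit. Between blood and Prrx1 cells the count of members called was 2, and 1 to 3 with a batch left out. Between Sox10-only and Tubb3-only cells it was 0, and 1 by DESeq2; leaving out a batch could not be tested there, since 1 batch leaves no residual degrees of freedom. Co-expression of receptor and target differed between neural and Prrx1 cells by 9.69 percentage points without thinning and 1.20 at 2 UMIs, and by -12.97 to 1.33 with a batch left out; between stages it differed by 10.8 points without thinning and by -27.63 to 17.85 with a batch left out.

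The batch pairs the gates, as both sums come from 1 collection. With no replicate block, Jag1 was at -0.14 between neural and Prrx1 cells, Dll1 at 0.051 between blood and Prrx1 cells, Notch3 at 0.60 between neural and blood cells, and Notch3 at 0.49 and Hes1 at -0.24 between Sox10-only and Tubb3-only cells, each of opposite sign and past no threshold, and the calls of Id1, Maml3, Rbpj and Dlk1 were lost (adjusted p = 0.0693, 0.0781, 0.0869 and 0.218 in edgeR). No paired analysis was possible between stages because each batch holds 1 stage. Other changes of sign, none past the threshold, these. With at least 5 cells per sum Jag1 stood at -0.075 between neural and Prrx1 cells, and Notch2 at 2.16 and Hes1 at 1.18 between stages in neural cells. With doubled gates Hey1 stood at -0.074 between neural and Prrx1 cells, and Jag1 at 0.073 and Hey1 at 1.43 between stages in neural cells. With thinned cells Heyl stood at 0.68 between blood and Prrx1 cells and Dll1 at 0.65 between stages over all cells. With cells of several gates kept Notch3 stood at 0.022 between neural and blood cells, and by DESeq2 Hey1 stood at -0.075 between the neural subsets.

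Leaving out a batch changed the sign of these log2 fold changes. The ranges were -0.22 to 0.86 for Jag1 and -0.088 to 1.63 for Hey1 between neural and Prrx1 cells, -1.17 to 0.12 for Heyl between blood and Prrx1 cells, and -0.65 to 1.02 for Notch3 between neural and blood cells. Between stages they were -1.21 to 3.24 for Dll1, -1.57 to 0.61 for Dll3 and -0.038 to 1.13 for Hey1 over all cells, and -1.15 to 0.78 for Notch1 and -1.51 to 1.02 for Dll3 in Prrx1 cells. In neural cells they were -2.14 to 1.71 for Notch2, -0.58 to 2.80 for Notch3, -1.32 to 9.53 for Dll1, -1.09 to 0.11 for Dll3, -1.12 to 0.47 for Jag1, -1.90 to 1.35 for Hes1 and -0.82 to 0.76 for Hey1. The upper value of Dll1 in neural cells compares with an E9.5 sum of 0 UMIs, so it depends on the prior count and is no bound. Hes1 became higher in neural than in blood cells when thinned (1.39, adjusted p = 0.0267 in edgeR), and with at least 5 cells per sum Notch2 and Notch3 became lower in neural than in Prrx1 cells (adjusted p = 0.0409 and 0.0378 in edgeR). The causes of these changes were not tested. The number of all genes called ranged from 421 to 1255 (739 in the main comparison) between neural and Prrx1 cells, 1294 to 3420 (2560) between blood and Prrx1 cells, 1419 to 3845 (2960) between neural and blood cells, 62 to 266 (153) between the neural subsets, and 0 to 86, 156 and 93 (0 in each) between stages over all, Prrx1 and neural cells. Leaving out repeated wells changed nothing, since 0 were found at 30000 UMIs. The 3 and 4 neural cells of E9.5 replicate 1 and E10 replicate 2 and the depth of each cell limit what can be seen of the lower members, Jag1, Hey1 and Dll1.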
